A study of Homo sapiens with 9 samples.

Results

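The ABC (ATP-binding cassette) transporter genes were described in a human lung cancer cell line, NCI-H358, studied in 3 states, and comprise all genes whose symbol reads ABC, a subfamily letter from A to G and a number. The rule took 46 genes of 60230 in the expression tables, namely 12 in subfamily A, 9 in B, 12 in C, 4 in D, 1 in E, 3 in F and 5 in G. Of these, 33 passed the filter on low counts and were tested among 17307 genes in all, and 13 were not tested. ABCC13, annotated as a pseudogene, was among the untested ones.

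Poly(A) RNA had been sequenced from 9 libraries, 3 per state. The resistant derivative NCI-H358-R, kept on 250 nM sotorasib until it grew readily after about 2 months, was profiled 4 days after dosing with 250 nM sotorasib, here called on drug. The same derivative was profiled without sotorasib, here called off drug, and the third state was the untreated parental line, which is sensitive to the drug. The submitters call the 3 libraries of a state biological replicates, and the labels do not state that each was a culture of its own. The p-values therefore reflect library-to-library spread, which may be technical. NCI-H358-R is the only resistant derivative, whether it is a single clone is not stated, and no label gives the time spent off drug.

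Most ABC proteins use ATP to move lipids, peptides, metals, conjugates or drugs across a membrane. Subfamily A moves mainly lipids, B holds the multidrug pump P-glycoprotein and several mitochondrial carriers, C holds the multidrug resistance proteins and the regulatory subunits of a potassium channel, D serves peroxisomes and lysosomes, and G moves sterols and drugs. Subfamilies E and F have no membrane-spanning part and act on ribosomes. In tumour cells the family is best known for drug efflux, and in alveolar cells of the lung for the export of surfactant lipid.

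Total counts were 33.39 to 34.73 in on-drug libraries, 25.73 to 33.99 off drug and 25.7 to 31.79 in parental libraries, in units of 1e6. In 1 library, 3 counts were worth 0.0776 to 0.123 CPM (counts per 1e6 counts), a floor that covers counting error only. The TMM factors used for scaling were 1.113 to 1.124 on drug and 0.917 to 0.972 in the other libraries. The 7 epithelial markers had a summed level of 4130 to 4910 CPM on drug, 6880 to 7080 CPM off drug and 6730 to 8130 CPM in parental cells. Of these, 2 were called higher and 4 lower on drug against off drug. Against parental cells, 3 were called higher and 4 lower on drug, and 1 higher and 2 lower off drug. KRT19 averaged 816 CPM on drug, 2250 CPM off drug and 2290 CPM in parental cells. In the same order, EPCAM averaged 257, 411 and 822 CPM, and NKX2-1 134, 30.7 and 65.2 CPM. Of 6 fibroblast markers tested, 4 were called higher and 0 lower on drug against off drug, 6 higher and 0 lower on drug against parental cells, and 2 higher and 1 lower off drug against parental cells. The whole list of 7 had a summed level of 126 to 158 CPM on drug, 17.9 to 18.6 CPM off drug and 27.0 to 31.1 CPM in parental cells. LUM averaged 89.3 CPM on drug, 2.05 CPM off drug and 2.21 CPM in parental cells, and COL1A1 43.9, 13.9 and 26.6 CPM in the same order, so LUM was most of the sum on drug and COL1A1 in the other states. COL3A1 averaged 4.68 CPM on drug and was at 0 in the other 6 libraries. PDGFRB averaged 2.52 CPM on drug, 2.02 CPM off drug and 0.0124 CPM in parental cells, and DCN was at 0.157, 0.135 and 0.181 CPM on drug. The pan-leukocyte marker PTPRC was at or below 0.183 CPM in each library, and CD3E at or below 0.0269 CPM. The leukocyte list summed to 6.88 to 8.29 CPM on drug, 72.3 to 76.9 CPM off drug and 58.7 to 68.4 CPM in parental cells, nearly all of it CD68, a lysosomal protein. The endothelial list summed to 13.3 to 17.6 CPM on drug, 25.3 to 26.7 CPM off drug and 9.79 to 12.8 CPM in parental cells, most of it KDR. Its members moved in both directions, with 2 called higher and 2 lower on drug against off drug. PECAM1 averaged 0.0956 CPM on drug, 5.02 CPM off drug and 0.803 CPM in parental cells. In the same order, CDH5 averaged 2.08, 0.222 and 0.243 CPM, and VWF 1.59, 0.381 and 0.59 CPM. These marker levels moved with the states in which the transporters differed, and their part in the results below was not tested.

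Expression levels set between genes are in TPM (transcripts per 1e6 transcripts), which are scaled for transcript length. ABCE1, which recycles ribosomes, had the highest mean of the family in each state, at 77.7 ± 5.99 TPM on drug, 104 ± 3.54 TPM off drug and 90.8 ± 11 TPM in parental cells (SD, n = 3 each). On drug it was followed by ABCF1 at 44.0 to 57.8 TPM, ABCD3 at 38.4 to 43.6 TPM, ABCC5 at 22.8 to 24.1 TPM and ABCF3 at 19.0 to 23.9 TPM. These ranges were apart down to ABCC5, and those of ABCC5 and ABCF3 overlapped. Off drug ABCF1 was at 37.4 to 44.3 TPM and ABCD3 at 24.0 to 26.9 TPM. In parental cells the order of the pair was turned, with ABCD3 at 20.1 to 24.1 TPM and ABCF1 at 15.8 to 17.2 TPM, and their ranges were apart in each state. A mean of at least 10 TPM was reached by 10 members on drug, 8 off drug and 9 in parental cells. At most 3 counts in every library were seen for 13 members on drug, 11 off drug and 12 in parental cells.

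**Figure D1:**
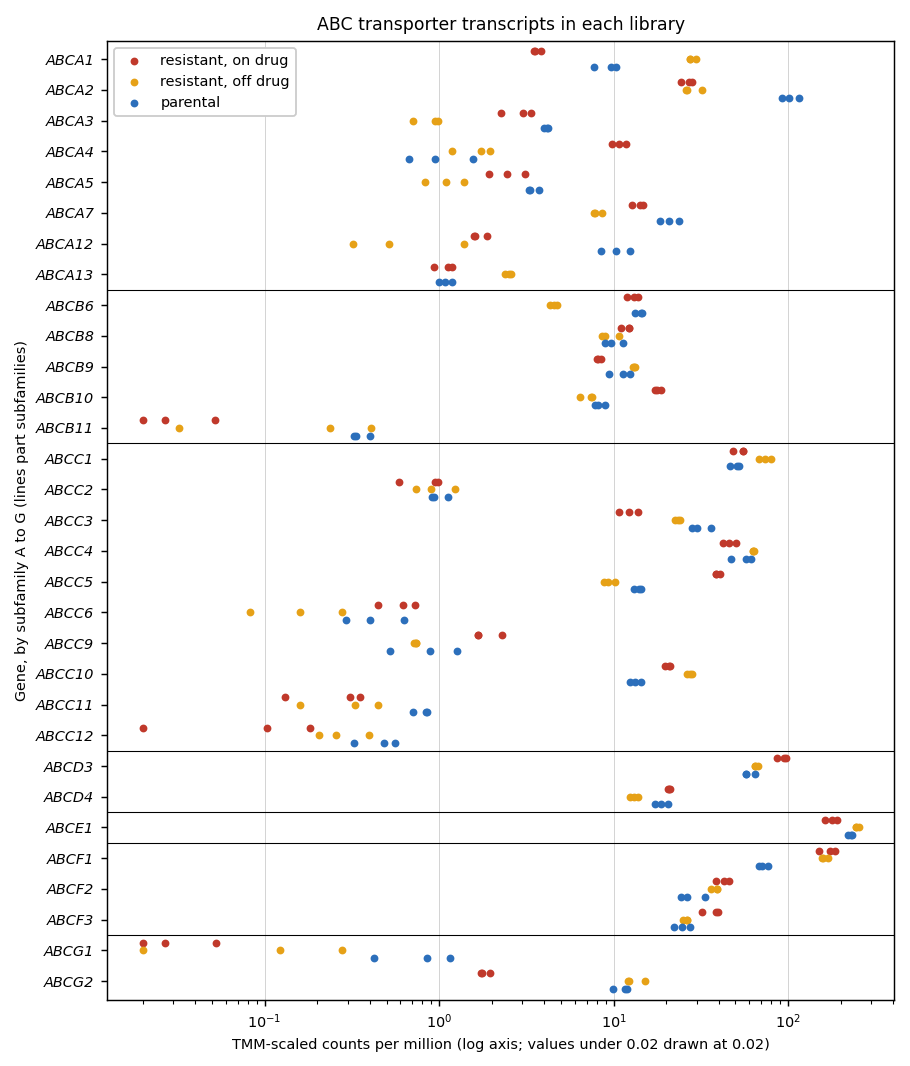
Level of 31 of the 33 tested ABC transporter genes in each of the 9 libraries, in TMM-scaled CPM on a log axis, ordered by subfamily; each point is 1 library and colours mark the state. ABCA1, ABCG2, ABCA4 and ABCC5 show on-drug points apart from those of both other states, while the ABCC2 points of the 3 states lie together.

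Levels of 1 gene across states are in CPM scaled by edgeR's TMM factors, and each fold change is a log2 value with its standard error from edgeR's quasi-likelihood test, with a call made where the p-value, adjusted by Benjamini-Hochberg over every gene tested, was under 0.05. On drug against off drug, 14 of the 33 tested members were called higher and 11 lower (75.8%), where 62.6% of all genes tested were called, 31.4% higher and 31.2% lower. On drug against parental cells, 9 were called higher and 15 lower (72.7%), where 66.3% of all genes were called, 33.4% higher and 32.9% lower. Off drug against parental cells, 6 were called higher and 12 lower (54.5%), where 55.0% of all genes were called, 28.4% higher and 26.6% lower. The median log2 change of the members was 0.07, -0.23 and -0.13 in these comparisons in turn, beside 0.02, 0.02 and 0.00 over all genes. The share called off drug against parental cells was close to that of all genes, and whether the other shares differ from theirs was not tested. The counts of calls given below for subfamilies and partner lists stand beside these same shares of all genes, and their difference from them was not tested either. The 3 comparisons share libraries with each other, so their values stand side by side here and are not independent.

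The balance of the calls was also read from TPM values tested in limma, which changed the measure, the filter and the test together. The settings were log2(TPM + 1) with a filter that left 22 members, log2(TPM + 0.1) with 33 members and log2(TPM + 1) with no filter and 43 members. In this order, 11, 14 and 15 members were called higher and 4, 4 and 4 lower on drug against off drug, and 11, 11 and 13 higher and 5, 7 and 7 lower on drug against parental cells. Off drug against parental cells, 7, 6 and 5 were called higher and 5, 8 and 10 lower, so lower calls were the more frequent as with counts, except in the first setting. On drug against parental cells higher calls were the more frequent with TPM, and lower calls with counts. Among all genes called, the share called higher with log2(TPM + 1) and a filter was 64.0%, 69.7% and 64.6% in the 3 comparisons, beside 50.1%, 50.4% and 51.6% with counts. Of the 25 members called with counts on drug against off drug, 13 of 18, 16 of 24 and 15 of 25 that the TPM settings tested kept call and direction. The numbers were 13 of 17, 15 of 23 and 15 of 24 on drug against parental cells, and 10 of 11, 13 of 18 and 15 of 18 off drug against parental cells. With library size alone as the scale, the median of all genes shifted to 0.27 on drug against off drug, where 17 members were called higher and 9 lower, and to 0.24 on drug against parental cells, where 12 were called higher and 11 lower. Of the called members, ABCC1 on drug against off drug and ABCA7, ABCB9 and ABCC4 on drug against parental cells changed sign with TPM values. In bulk RNA, fewer cells with a transcript and less of it per cell cannot be told apart.

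Promoters of 4 called members with an entry in the RefSeq promoter table (build GRCh38.p14) are printed here. Among such members with a mean of at least 5 CPM in 1 state, they had the 2 largest rises and the 2 largest falls on drug against off drug. ABCA4, with the largest rise of the tested members at 2.72, has no entry in that table. Each run is the 250 bases before the start given by its RefSeq entry, 5′ to 3′ along the gene. ABCG2 has 5 entries, of which the middle one is shown. Capitals mark matches on either strand to 5 motifs: the GC box GGGCGG, the E-box CACGTG, the AP-1 site TGANTCA, the antioxidant response element TGACNNNGC and the TATA box TATAAA.
ABCC5 promoter: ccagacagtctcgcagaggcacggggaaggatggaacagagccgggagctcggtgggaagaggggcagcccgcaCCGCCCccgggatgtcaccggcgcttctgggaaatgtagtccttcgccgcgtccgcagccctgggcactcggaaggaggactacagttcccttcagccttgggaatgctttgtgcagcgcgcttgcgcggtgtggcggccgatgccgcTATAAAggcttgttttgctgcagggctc
ABCB6 promoter: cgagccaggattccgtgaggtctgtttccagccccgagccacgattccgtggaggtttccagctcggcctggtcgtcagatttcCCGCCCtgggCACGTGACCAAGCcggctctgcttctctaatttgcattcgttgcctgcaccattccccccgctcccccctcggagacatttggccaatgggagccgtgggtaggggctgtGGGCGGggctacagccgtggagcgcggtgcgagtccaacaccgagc
ABCA1 promoter: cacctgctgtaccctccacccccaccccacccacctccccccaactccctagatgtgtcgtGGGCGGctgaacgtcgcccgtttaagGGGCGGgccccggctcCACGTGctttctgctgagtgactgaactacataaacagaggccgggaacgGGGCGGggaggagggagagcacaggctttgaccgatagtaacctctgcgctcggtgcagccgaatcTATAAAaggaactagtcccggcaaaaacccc
ABCG2 promoter: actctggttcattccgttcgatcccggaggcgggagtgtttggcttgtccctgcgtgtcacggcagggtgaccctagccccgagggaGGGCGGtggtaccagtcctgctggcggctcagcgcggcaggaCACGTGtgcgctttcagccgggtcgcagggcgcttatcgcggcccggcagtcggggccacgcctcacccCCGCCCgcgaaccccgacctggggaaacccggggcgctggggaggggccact
These windows are chr3:184017885-184018134, chr2:219218959-219219208, chr9:104928156-104928405 and chr4:88158910-88159159, all on the minus strand. The RefSeq starts differ from the gene starts of GENCODE 29, from which gene positions are given below. The ABCG2 window lies inside its GENCODE gene span, and the ABCC5, ABCB6 and ABCA1 windows run partly into theirs. ABCC5, which rose, and ABCA1, which fell, both hold a TATA box close to the RefSeq start. Its first base is 28 bases before that start in ABCC5 and 31 in ABCA1. E-boxes stand in the printed windows of ABCB6, ABCA1 and ABCG2. The ABCG2 entries at chr4:88158640-88158889, chr4:88159291-88159540 and chr4:88231627-88231876 held no match to any of the 5 motifs. In ABCB6 the E-box overlaps an antioxidant response element, so both form 1 capital run. GC boxes occur in all 4 windows. Over 35116 promoters of the table the GC box was present in 42.6%, the E-box in 6.34%, the AP-1 site in 6.57%, the antioxidant response element in 10.9% and the TATA box in 10.7%. Among the 41 entries of 27 tested members, some of which overlap, 22 held a GC box, 8 an E-box, 2 an AP-1 site, 8 an antioxidant response element and 4 a TATA box. A match is a description of the letters in the window and does not show that a factor binds there.

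Subfamily A, the lipid transporters, held 8 tested members. Of these, 5 were called higher and 2 lower on drug against off drug, 1 higher and 5 lower on drug against parental cells, and 2 higher and 5 lower off drug against parental cells. Their summed level was 18.8 ± 1.07 TPM on drug, 12.8 ± 0.751 TPM off drug and 25.7 ± 1.70 TPM in parental cells (SD, n = 3 each), so the off-drug libraries held the least.

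ABCA1, which exports cholesterol and phospholipid to apolipoprotein A-I (chr9:104781002-104928237, minus strand, GENCODE 29), was at 3.82, 3.53 and 3.49 CPM on drug, 27.6, 27.3 and 29.7 CPM off drug, and 9.68, 10.3 and 7.71 CPM in parental cells. The 3 states did not overlap, and the off-drug libraries were the highest. It fell by 2.96 ± 0.12 on drug against off drug (adjusted p = 5.2e-12) and by 1.35 ± 0.12 on drug against parental cells (adjusted p = 7.7e-08), and was higher by 1.61 ± 0.11 off drug against parental cells (adjusted p = 7.1e-09). ABCG1, of subfamily G, exports sterols to mature lipoproteins and had 2, 1 and 0 counts on drug, 7, 3 and 0 off drug, and 13, 29 and 23 in parental cells. All on-drug counts of ABCG1 were under the floor of 3, and it was called lower on drug (adjusted p = 1.5e-04) and off drug (adjusted p = 0.0055) against parental cells, with no fold printed at such counts. Both calls were kept in all 9 fits that each left out 1 library, but the fitted off-drug value moved 2.2-fold without off-drug replicate 1, and the off-drug call was lost with log2(TPM + 0.1) (adjusted p = 0.062).

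Of 13 tested genes of cholesterol efflux and liver X receptor (LXR) targets, 3 were called higher and 6 lower on drug against off drug, 2 higher and 7 lower on drug against parental cells, and 2 higher and 5 lower off drug against parental cells. SREBF1, a regulator of lipid synthesis, was at 143, 119 and 156 CPM on drug, 195, 212 and 199 CPM off drug, and 542, 600 and 637 CPM in parental cells. NPC1, which moves cholesterol out of lysosomes, was at 42.7, 34.0 and 38.2 CPM on drug, 126, 134 and 120 CPM off drug, and 66.3, 70.5 and 63.1 CPM in parental cells. NR1H3, which encodes LXR alpha, was at 3.06, 4.09 and 2.59 CPM on drug, 8.37, 6.35 and 8.41 CPM off drug, and 5.82, 4.57 and 7.63 CPM in parental cells. NPC1 was highest off drug and lowest on drug, and each of its 3 comparisons was called, with log2 changes of -1.73 ± 0.09 on drug against off drug, -0.80 ± 0.09 on drug against parental cells and 0.93 ± 0.09 off drug against parental cells. SREBF1 was called lower in the 3 comparisons, by up to 2.09 on the log2 scale on drug against parental cells. NR1H3 fell by 1.25 ± 0.20 on drug against off drug (adjusted p = 5.6e-05), and NR1H2 by 0.41 ± 0.10 (adjusted p = 0.002). The 3 genes called higher in that comparison were RXRA, by 1.06 ± 0.08 (adjusted p = 2.1e-08), SOAT1, by 0.31 ± 0.08, and MYLIP, by 0.24 ± 0.08. The list thus moved in both directions.

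ABCA4, the retinal transporter of retinylidene lipids (chr1:93992835-94121132, minus strand), was at 11.8, 9.85 and 10.7 CPM on drug, 1.19, 1.97 and 1.73 CPM off drug, and 0.949, 1.56 and 0.67 CPM in parental cells. Every on-drug library lay above the other 6. It rose by 2.72 ± 0.22 on drug against off drug (adjusted p = 2.3e-08) and by 3.36 ± 0.23 on drug against parental cells (adjusted p = 3.4e-09). Off drug against parental cells the difference of 0.64 ± 0.27 was not called (adjusted p = 0.06), and it was called with no filter, with DESeq2, without parental replicate 2 and without off-drug replicate 1.

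ABCA2, a lipid transporter of late endosomes and lysosomes, was at 27.0, 24.4 and 28.3 CPM on drug, 26.4, 32.0 and 26.0 CPM off drug, and 101, 115 and 92.4 CPM in parental cells. Both resistant states lay below parental cells and overlapped each other. ABCA2 fell by 1.95 ± 0.11 on drug (adjusted p = 1.8e-10) and by 1.87 ± 0.11 off drug (adjusted p = 9.8e-10) against parental cells, and the on-drug minus off-drug difference was -0.08, with a 95% interval of -0.31 to 0.15. ABCA12, the keratinocyte transporter of glucosylceramide, was at 1.88, 1.61 and 1.58 CPM on drug, 0.516, 1.39 and 0.321 CPM off drug, and 12.5, 10.3 and 8.45 CPM in parental cells. It fell by 2.62 ± 0.27 on drug (adjusted p = 4.1e-07) and by 3.85 ± 0.32 off drug (adjusted p = 6.1e-08) against parental cells, and rose by 1.24 ± 0.35 on drug against off drug (adjusted p = 0.0065), a call lost with log2(TPM + 0.1) (log2 change 0.84) and with unfiltered log2(TPM + 1) (0.17). Without off-drug replicate 2, its highest off-drug library, those off-drug values became -4.66 and 2.03.

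ABCA3, which loads surfactant phospholipid into the lamellar bodies of alveolar cells, was at 3.01, 2.26 and 3.36 CPM on drug, 0.952, 0.983 and 0.706 CPM off drug, and 3.99, 4.21 and 4.13 CPM in parental cells. The off-drug libraries were lowest and no states overlapped. ABCA3 rose by 1.72 ± 0.23 on drug against off drug (adjusted p = 7e-06) and fell by 2.23 ± 0.23 off drug against parental cells (adjusted p = 6e-07). The on-drug difference from parental cells, -0.51 ± 0.19 (adjusted p = 0.028), lost its call without parental replicate 2 (log2 change -0.50), without parental replicate 3 (-0.51) or without on-drug replicate 2 (-0.37), and with library size alone as the scale (-0.29). Of 10 surfactant and lamellar body genes, 4 were tested, and 4 were called higher and 0 lower on drug against off drug, 3 higher and 0 lower on drug against parental cells, and 1 higher and 1 lower off drug against parental cells. SLC34A2, a phosphate carrier of alveolar cells, was at 2.07, 1.86 and 2.15 CPM on drug, 0.357, 0.246 and 0.353 CPM off drug, and at most 0.0981 CPM in parental cells. NAPSA, an aspartic protease that processes surfactant protein B, was at 2.88, 2.37 and 2.72 CPM on drug, 0.556, 0.942 and 0.867 CPM off drug, and 0.589, 1.36 and 1.01 CPM in parental cells. LAMP3, a lamellar body membrane protein, was at 5.07, 3.74 and 4.89 CPM on drug and 1.87, 1.64 and 1.48 CPM off drug. On drug against off drug, SLC34A2 rose by 2.64 ± 0.37, NAPSA by 1.74 ± 0.30 and LAMP3 by 1.46 ± 0.21, while the surfactant proteins SFTPB and SFTPC were at or near 0 in all libraries. On drug against parental cells NAPSA rose by 1.44 ± 0.29 and LAMP3 by 0.96 ± 0.20. SLC34A2 was called higher than in parental cells both on drug (adjusted p = 1.4e-07) and off drug (adjusted p = 0.0024). Its parental libraries were at or under the floor of 3 counts, so no fold against them is printed. Off drug against parental cells LPCAT1, which makes surfactant phosphatidylcholine, fell by 1.09 ± 0.09.

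ABCA7, a phospholipid transporter, was at 14.8, 14.2 and 12.8 CPM on drug, 8.53, 7.86 and 7.74 CPM off drug, and 18.5, 20.8 and 23.6 CPM in parental cells. The states did not overlap, with the least off drug, and ABCA7 rose by 0.79 ± 0.11 on drug against off drug (adjusted p = 1.3e-05) and fell by 1.38 ± 0.11 off drug against parental cells (adjusted p = 4.3e-08). ABCA5, a lysosomal lipid transporter, was at 3.09, 2.45 and 1.94 CPM on drug, 0.833, 1.39 and 1.09 CPM off drug, and 3.34, 3.73 and 3.28 CPM in parental cells, and it too was lowest off drug. It rose by 1.17 ± 0.24 on drug against off drug (adjusted p = 5.9e-04) and fell by 1.64 ± 0.24 off drug against parental cells (adjusted p = 3.4e-05). ABCA13, a very large and little studied member, was at 1.12, 1.18 and 0.931 CPM on drug, 2.5, 2.58 and 2.38 CPM off drug, and 1.18, 1.00 and 1.08 CPM in parental cells. Only its off-drug libraries stood apart, with a log2 change of -1.20 ± 0.23 on drug against off drug (adjusted p = 2.7e-04) and 1.19 ± 0.24 off drug against parental cells (adjusted p = 4.9e-04). Both calls were lost with log2(TPM + 0.1) (log2 changes of -0.45 and 0.65) and with unfiltered log2(TPM + 1) (-0.14 and 0.20).

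**Figure D2:**
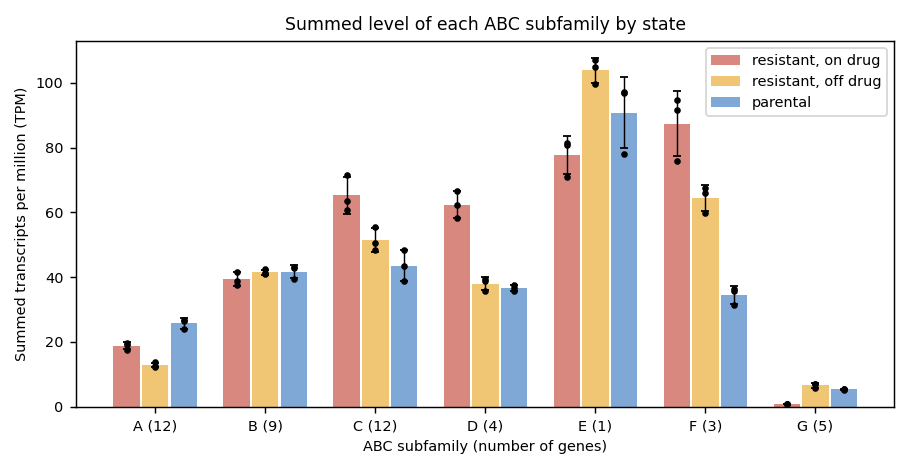
Summed TPM of each ABC subfamily in the 3 states; bars are means of 3 libraries, error bars are SD and points are libraries, with the number of genes in brackets. Subfamily A was lowest off drug at 12.8 TPM, subfamily F highest on drug at 87.4 TPM and subfamily G lowest on drug at 0.761 TPM.

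Subfamily B held 6 tested members, of which 3 were called higher and 3 lower on drug against off drug, 1 higher and 3 lower on drug against parental cells, and 0 higher and 1 lower off drug against parental cells. ABCB1, the gene of P-glycoprotein, was not tested: its counts were 1, 2 and 1 on drug, 0, 2 and 2 off drug, and 1, 0 and 0 in parental cells. Every library was thus at or under the floor of 3 counts, and a difference was not detectable at this depth.

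ABCB6, a porphyrin transporter (chr2:219209766-219219017, minus strand), was at 13.9, 11.9 and 13.1 CPM on drug, 4.76, 4.54 and 4.33 CPM off drug, and 14.4, 13.3 and 14.5 CPM in parental cells. The off-drug libraries lay below all others, and the on-drug and parental libraries overlapped. ABCB6 rose by 1.51 ± 0.11 on drug against off drug (adjusted p = 7.2e-09) and fell by 1.63 ± 0.11 off drug against parental cells (adjusted p = 7.2e-09). ABCB10, a mitochondrial inner membrane transporter tied to heme synthesis, was at 17.7, 17.3 and 18.7 CPM on drug, 7.46, 7.49 and 6.42 CPM off drug, and 8.14, 7.85 and 8.97 CPM in parental cells. Here the on-drug libraries stood above both other states, by 1.33 ± 0.10 on drug against off drug (adjusted p = 1.8e-08) and 1.10 ± 0.10 on drug against parental cells (adjusted p = 1.1e-07).

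Of 12 genes of heme and iron-sulfur synthesis, 4 were called higher and 3 lower on drug against off drug, 3 higher and 3 lower on drug against parental cells, and 5 higher and 3 lower off drug against parental cells. On drug against off drug, SLC25A37, a mitochondrial iron importer, fell by 1.93 ± 0.08 and ALAS1, the first enzyme of heme synthesis, by 0.86 ± 0.09. Within the subfamily, ABCB9, a lysosomal peptide transporter, fell by 0.66 ± 0.11 on drug against off drug (adjusted p = 8e-05), a call lost in the 3 TPM settings (log2 changes of -0.28, -0.33 and -0.28). ABCB8, a mitochondrial transporter, was called higher by 0.33 ± 0.12 (adjusted p = 0.027), a call lost in 4 of 9 fits that each left out 1 library (largest adjusted p = 0.12). ABCB11, the bile salt export pump, was at 0.0517 CPM or less on drug. It was called lower on drug against parental cells (adjusted p = 0.0019), and its call on drug against off drug (adjusted p = 0.015) was lost without off-drug replicate 2 or without on-drug replicate 1.

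Relatives of subfamily B that carry other symbols are TAP1 and TAP2, which feed peptides to MHC class I molecules. TAP1 was at 31.0, 26.0 and 30.4 CPM on drug, 52.5, 59.9 and 55.5 CPM off drug, and 56.0, 60.8 and 71.3 CPM in parental cells, so it fell on drug against both other states, by 0.94 ± 0.10 and 1.10 ± 0.10. TAP2 was at 54.1, 41.5 and 54.4 CPM on drug, 73.1, 74.6 and 68.4 CPM off drug, and 37.5, 42.8 and 43.1 CPM in parental cells, and was thus highest off drug. Of 7 peptide loading partners, 1 was called higher and 1 lower on drug against off drug, 2 higher and 3 lower on drug against parental cells, and 0 higher and 2 lower off drug against parental cells. B2M, the light chain of MHC class I, was at 502, 726 and 607 CPM on drug, 689, 697 and 793 CPM off drug, and 1700, 1590 and 1700 CPM in parental cells, below parental levels in all 6 resistant libraries.

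**Figure D3:**
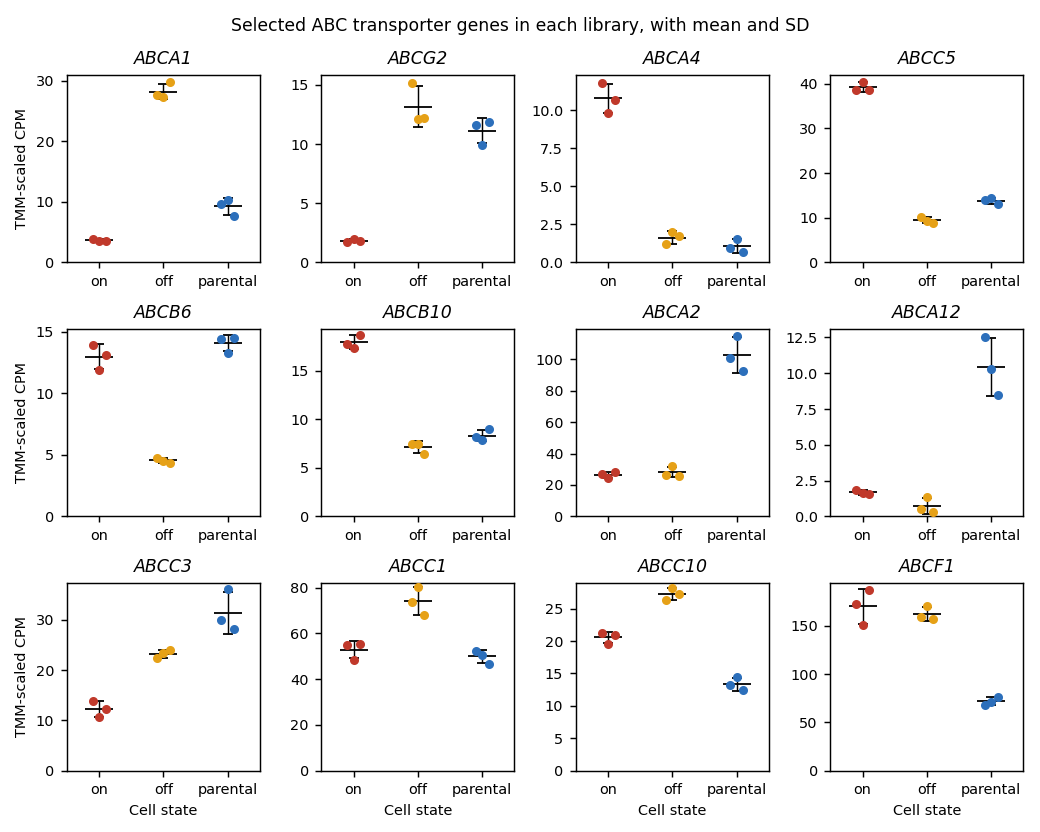
TMM-scaled CPM of 12 ABC transporter genes by state, each with its own axis from 0; points are libraries, the wide line is the mean and the error bar is the SD (n = 3). ABCA4, ABCC5 and ABCB10 are highest on drug, ABCA1 and ABCC10 highest off drug, and ABCG2 is low on drug at 1.73 to 1.96 CPM.

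Subfamily C held 10 tested members, of which 3 were called higher and 4 lower on drug against off drug, 3 higher and 4 lower on drug against parental cells, and 2 higher and 4 lower off drug against parental cells. ABCC5, which exports cyclic nucleotides and nucleotide analogs (chr3:183919934-184018015, minus strand), was at 38.7, 40.5 and 38.7 CPM on drug, 10.2, 9.25 and 8.86 CPM off drug, and 14, 14.3 and 13.1 CPM in parental cells. No states overlapped, and the on-drug libraries were highest. ABCC5 rose by 2.06 ± 0.09 on drug against off drug (adjusted p = 1.8e-11) and by 1.51 ± 0.09 on drug against parental cells (adjusted p = 3.9e-10), and fell by 0.55 ± 0.09 off drug against parental cells (adjusted p = 1.2e-04). In TPM it was at 23.3 on drug, 4.18 off drug and 5.92 in parental cells, the fourth highest of the family on drug and the 16th and 13th in the other states.

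ABCC1, the multidrug resistance protein that exports glutathione conjugates, was at 54.9, 48.4 and 55.4 CPM on drug, 73.8, 80.4 and 68.0 CPM off drug, and 52.3, 50.7 and 46.7 CPM in parental cells. Its off-drug libraries lay above the other 6, and its on-drug and parental libraries overlapped. ABCC1 fell by 0.48 ± 0.09 on drug against off drug (adjusted p = 1.8e-04) and rose by 0.57 ± 0.09 off drug against parental cells (adjusted p = 5.5e-05). In TPM it averaged 14.2 ± 2.15 on drug, 13.8 ± 1.26 off drug and 9.03 ± 0.999 in parental cells (SD, n = 3 each), and the log2(TPM + 1) difference of on drug against off drug was 0.03. ABCC10, which exports taxanes, was at 21.2, 19.6 and 20.9 CPM on drug, 26.4, 28.2 and 27.3 CPM off drug, and 13.2, 14.4 and 12.4 CPM in parental cells. The states did not overlap, with log2 changes of -0.41 ± 0.09 on drug against off drug (adjusted p = 6.3e-04), 0.63 ± 0.09 on drug against parental cells (adjusted p = 1.3e-05) and 1.03 ± 0.09 off drug against parental cells (adjusted p = 9.9e-08). The first of these calls was lost with library size alone as the scale (log2 change -0.15) and in the 3 TPM settings (-0.27, -0.30 and -0.27).

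ABCC3, a basolateral exporter of glucuronides and bile salts, was at 13.8, 10.7 and 12.2 CPM on drug, 22.4, 23.3 and 23.9 CPM off drug, and 29.9, 36.1 and 28.2 CPM in parental cells. The states did not overlap, and each comparison was called, with log2 changes of -0.92 ± 0.11 on drug against off drug (adjusted p = 2.7e-06), -1.36 ± 0.11 on drug against parental cells (adjusted p = 2.5e-08) and -0.43 ± 0.11 off drug against parental cells (adjusted p = 0.0031). With TPM values the first and the last of these calls were lost (log2 changes of -0.41 and -0.21). ABCC4, which exports cyclic nucleotides and prostaglandins, was at 50.2, 46.0 and 42.2 CPM on drug, 62.9, 62.8 and 63.6 CPM off drug, and 61.7, 57.2 and 47.1 CPM in parental cells. It fell by 0.45 ± 0.10 on drug against off drug (adjusted p = 8.8e-04), a call lost with library size alone as the scale (log2 change -0.19) and in the 3 TPM settings (-0.26, -0.28 and -0.26). The on-drug difference from parental cells, -0.26 ± 0.10 (adjusted p = 0.028), came with overlapping libraries and was lost in 3 of 9 fits that each left out 1 library (largest adjusted p = 0.16). ABCC2, an apical exporter of conjugates, was at 0.942, 0.592 and 0.983 CPM on drug, 1.23, 0.737 and 0.899 CPM off drug, and 0.916, 1.12 and 0.931 CPM in parental cells. Its libraries overlapped throughout and no comparison was called, with a 95% interval of -0.87 to 0.50 on drug against off drug.

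ABCC9, a regulatory subunit of ATP-sensitive potassium channels, was at 2.28, 1.67 and 1.68 CPM on drug, 0.714, 0.737 and 0.738 CPM off drug, and 0.883, 0.521 and 1.27 CPM in parental cells. It was higher on drug than in the other 6 libraries, by 1.36 ± 0.31 against off drug (adjusted p = 0.0014) and 1.07 ± 0.30 against parental cells (adjusted p = 0.0058). Both calls were lost with log2(TPM + 0.1) (log2 changes of 0.60 and 0.61) and with unfiltered log2(TPM + 1) (0.19 and 0.19). The channel pores KCNJ8 and KCNJ11 were not tested, with a summed level of at most 0.24 CPM in any library, and the sister subunit ABCC8 was listed at 0 in every library. ABCC6, ABCC11 and ABCC12 averaged under 1 CPM in every state. ABCC6 has near-identical pseudogene copies, so its reads are uncertain, and its lower call off drug against parental cells (adjusted p = 0.047) was kept in only 2 of 9 fits that each left out 1 library. It was called higher on drug against off drug (adjusted p = 0.0066). That call was kept in all 9 such fits and lost with unfiltered log2(TPM + 1). ABCC11 was called lower on drug (adjusted p = 0.0054) and off drug (adjusted p = 0.023) against parental cells, the off-drug call in only 5 of 9 such fits, and ABCC12 was called lower on drug against parental cells, with a log2 change of -2.19 ± 0.66 (adjusted p = 0.0082) that became -3.02 without on-drug replicate 1. With log2(TPM + 0.1) these calls of ABCC11 and ABCC12 were lost.

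Partners of these conjugate exporters showed calls in both directions, as did all genes, of which 62.6%, 66.3% and 55.0% were called in the comparisons below in turn. Of 17 genes of the NRF2 response and glutathione conjugation, 6 were called higher and 4 lower on drug against off drug, 7 higher and 7 lower on drug against parental cells, and 2 higher and 6 lower off drug against parental cells. SLC7A11, the cystine importer for glutathione synthesis, was at 15.0, 15.3 and 13.6 CPM on drug, 57.1, 71.0 and 65.9 CPM off drug, and 79.6, 78.7 and 62.1 CPM in parental cells. GSR, glutathione reductase, was at 146, 141 and 139 CPM on drug, 239, 240 and 225 CPM off drug, and 450, 443 and 493 CPM in parental cells. MGST1, a membrane-bound glutathione transferase, was at 172, 184 and 177 CPM on drug, 60.2, 60.2 and 65.3 CPM off drug, and 118, 124 and 139 CPM in parental cells. On drug against off drug, SLC7A11 fell by 2.15 ± 0.11 and GSR by 0.72 ± 0.07, and MGST1 rose by 1.52 ± 0.08.

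Of 7 tested xenobiotic and bile acid receptors, 0 were called higher and 4 lower on drug against off drug, 2 higher and 0 lower on drug against parental cells, and 5 higher and 0 lower off drug against parental cells. PPARD, a fatty acid receptor, was at 76.5, 69.8 and 78.1 CPM on drug, 155, 146 and 157 CPM off drug, and 45.7, 46.0 and 39.7 CPM in parental cells, with its highest level off drug. Of 10 tested drug and organic ion carriers of the SLCO, SLC22 and SLC47 families, 2 were called higher and 2 lower on drug against off drug. Against parental cells, 2 were called higher and 7 lower on drug, and 3 higher and 7 lower off drug. SLC47A1 and SLC47A2 were among those called lower in both resistant states, so these counts are not of uptake carriers only. SLCO2A1, a prostaglandin carrier, was at 23.5, 17.1 and 22.1 CPM on drug, 6.79, 6.10 and 6.03 CPM off drug, and 1.28, 1.48 and 1.27 CPM in parental cells. SLC22A18, an organic cation carrier, was at 3.45, 2.75 and 3.42 CPM on drug, 13, 11.9 and 12 CPM off drug, and 28.7, 30.9 and 40.3 CPM in parental cells. Both had 3 states that did not overlap, in opposite order.

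Subfamily D held 3 tested members, of which 2 were called higher and 0 lower on drug against off drug, 1 higher and 0 lower on drug against parental cells, and 0 higher and 1 lower off drug against parental cells. ABCD3, a peroxisomal fatty acid transporter, averaged 93.0 ± 5.79 CPM on drug, 65.5 ± 1.92 CPM off drug and 59.9 ± 4.27 CPM in parental cells (SD, n = 3 each). It rose by 0.51 ± 0.08 on drug against off drug (adjusted p = 5.1e-05) and by 0.64 ± 0.08 on drug against parental cells (adjusted p = 4.2e-06). ABCD4, which releases cobalamin from lysosomes, averaged 20.9 ± 0.280 CPM on drug, 13.1 ± 0.700 CPM off drug and 18.7 ± 1.57 CPM in parental cells, with the least off drug. Of 9 peroxisome and cobalamin partners, 6 were called higher and 2 lower on drug against off drug, 3 higher and 3 lower on drug against parental cells, and 1 higher and 3 lower off drug against parental cells. Among them ACAA1, a peroxisomal thiolase, rose by 1.03 ± 0.10 on drug against off drug (adjusted p = 3.1e-07), and SLC27A2, a fatty acid importer and ligase, fell by 3.41 ± 0.20 off drug against parental cells (adjusted p = 1.3e-09).

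Subfamilies E and F, which act on ribosomes, held 1 and 3 members, all tested. ABCF1, which promotes translation initiation, was at 173, 151 and 187 CPM on drug, 159, 170 and 157 CPM off drug, and 68.1, 71.0 and 76.4 CPM in parental cells. Both resistant states lay above parental cells and overlapped each other. ABCF1 rose by 1.25 ± 0.09 on drug (adjusted p = 5e-09) and by 1.18 ± 0.09 off drug (adjusted p = 2.4e-08) against parental cells, and the on-drug minus off-drug difference was 0.07, with a 95% interval of -0.11 to 0.26. ABCF2 was called higher in both resistant states against parental cells, by 0.60 ± 0.11 on drug and 0.45 ± 0.11 off drug. ABCF3, whose yeast relative works with a stress kinase, was called higher on drug against each other state, by 0.51 ± 0.10 against off drug and 0.57 ± 0.10 against parental cells, and was not called off drug against parental cells (adjusted p = 0.66).

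ABCE1 was at 179, 191 and 163 CPM on drug, 254, 245 and 245 CPM off drug, and 234, 229 and 221 CPM in parental cells. The on-drug libraries lay below the other 6, with log2 changes of -0.48 ± 0.08 on drug against off drug (adjusted p = 5.1e-05) and -0.36 ± 0.08 on drug against parental cells (adjusted p = 6.5e-04). The call against parental cells was lost with library size alone as the scale and with TPM values. Of 9 tested partners in ribosome recycling and stalling, 0 were called higher and 8 lower on drug against off drug, 3 higher and 5 lower on drug against parental cells, and 8 higher and 0 lower off drug against parental cells. PELO, which opens stalled ribosomes together with ABCE1, was at 29.8, 29.5 and 30.0 CPM on drug, 60.8, 62.8 and 63.4 CPM off drug, and 45.3, 46.4 and 53.6 CPM in parental cells. LTN1, a ligase that tags stalled chains, was at 34.5, 31.6 and 28.4 CPM on drug, 66.8, 67.8 and 61.8 CPM off drug, and 48.9, 43.4 and 40.1 CPM in parental cells. Both were highest off drug and lowest on drug in every library, each with a log2 change of -1.06 on drug against off drug.

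Subfamily G held 2 tested members, of which 1 was called lower on drug against off drug, 2 lower on drug against parental cells and 1 lower off drug against parental cells, with 0 called higher. ABCG2, the breast cancer resistance protein that exports many kinase inhibitors (chr4:88090264-88231322, minus strand), was at 1.73, 1.96 and 1.76 CPM on drug, 15.2, 12.1 and 12.2 CPM off drug, and 11.6, 9.90 and 11.9 CPM in parental cells. Every on-drug library lay below the other 6. ABCG2 fell by 2.85 ± 0.14 on drug against off drug (adjusted p = 7.3e-11) and by 2.61 ± 0.14 on drug against parental cells (adjusted p = 1.9e-10). Off drug against parental cells the difference of 0.24 ± 0.12 was not called (adjusted p = 0.11), with a 95% interval of -0.02 to 0.50. The summed level of the subfamily, nearly all of it ABCG2, was 0.761 ± 0.0616 TPM on drug, 6.56 ± 0.840 TPM off drug and 5.28 ± 0.0939 TPM in parental cells (SD, n = 3 each).

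**Figure D4:**
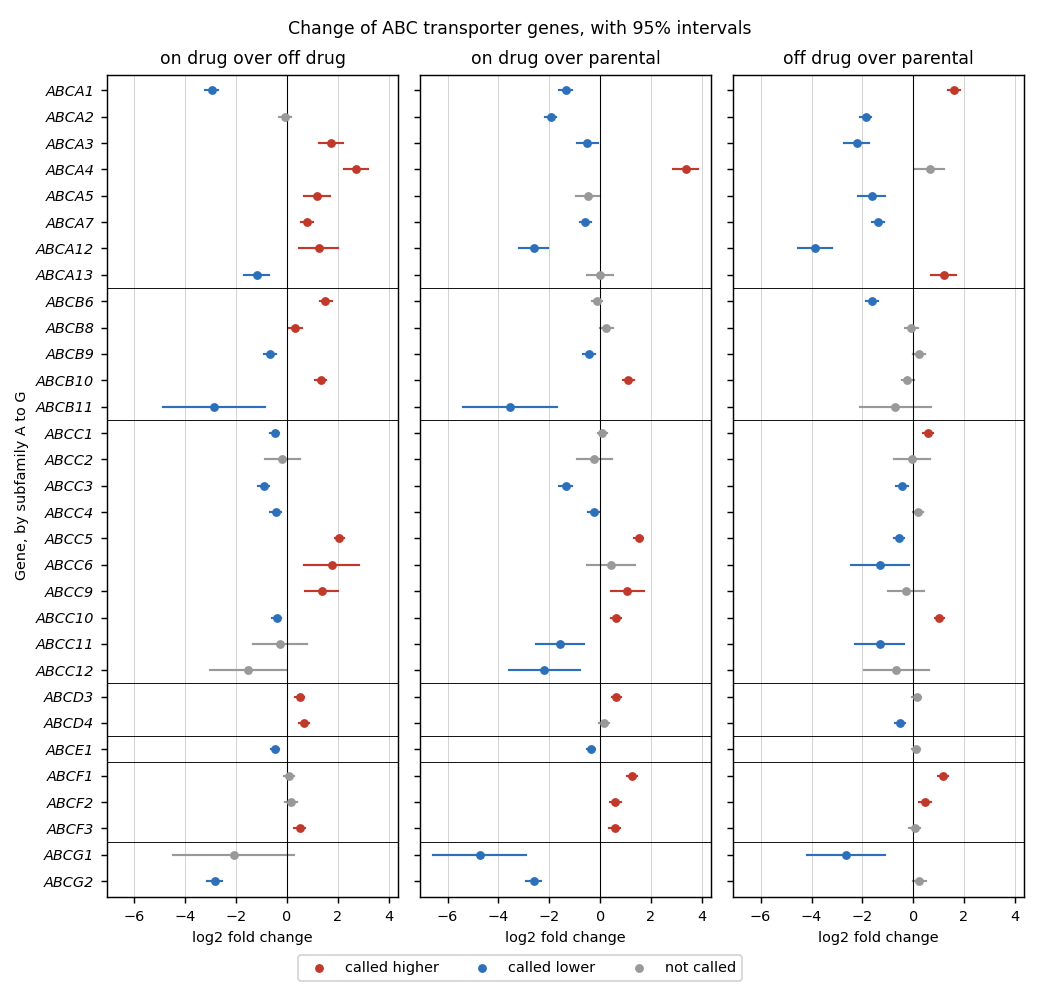
Log2 fold change of 31 of the 33 tested members in the 3 comparisons, on a shared axis; lines are 95% intervals from edgeR's fit, red is called higher, blue called lower and grey not called. ABCA1 and ABCG2 lie far below 0 on drug against off drug at -2.96 and -2.85, and ABCA4 lies highest at 2.72.

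The 13 untested members were ABCA6, ABCA8, ABCA9, ABCA10, ABCB1, ABCB4, ABCB5, ABCC8, ABCC13, ABCD2, ABCG4, ABCG5 and ABCG8. ABCA9, ABCC8 and ABCG5 were listed at 0 in all 9 libraries. ABCB5, a transporter first studied in melanoma, had 6, 9 and 15 counts on drug, 2, 1 and 1 off drug, and 0, 2 and 0 in parental cells. ABCD2, a peroxisomal fatty acid transporter, had 16, 16 and 10 counts on drug, 1, 1 and 3 off drug, and 3, 1 and 1 in parental cells. In both genes every on-drug library was above the other 6. ABCA10 had 0, 1 and 1 counts on drug, 14, 3 and 10 off drug, and 9, 12 and 1 in parental cells. With no filter, 10 of the 13 were fitted and these 3 were called. ABCD2 was then called higher on drug against off drug (adjusted p = 0.0094) and against parental cells (adjusted p = 0.0082), and ABCB5 against parental cells (adjusted p = 0.011) and not against off drug (adjusted p = 0.056). ABCA10 was called lower on drug against off drug (adjusted p = 3.2e-04) and against parental cells (adjusted p = 0.0011). No fold is printed at such counts.

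The annotated spans of some members, introns included, overlap those of other genes. Overlap of exons was not examined, and no source used here gives the strand setting of the counting. Whether reads of the overlapping genes were mixed is therefore not known. On the opposite strand these partners are C9orf139 for ABCA2, ABCA17P for ABCA3, OGFOD2 and ARL6IP4 for ABCB9, ABCC5-AS1 for ABCC5, DLK2 for ABCC10, LONP2 for ABCC11, and ANAPC10 and OTUD4 for ABCE1. ABCA5 overlaps ABCA10 on the same strand.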

How the data were processed

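The authors deposited estimated counts per gene, unscaled for depth, and TPM, scaled for length and depth. The submitters' processing notes name Salmon 0.14.1, bcl2fastq 2.17, FastQC 0.12.1 and the build GRCh38.p13 without roles. No source used here gives the annotation release, the strand setting or how transcripts were summed.

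Estimated counts were rounded and fitted with edgeR 4.0.16 (R 4.3.3) over all 9 libraries with TMM scaling, filterByExpr (minimum count 10, minimum total 15) and a mean per state, with 6 residual degrees of freedom. Standard errors are the absolute log2 change over the square root of F, and p-values were Benjamini-Hochberg adjusted over 17307 genes. Symbols matched 60089 of 60230 identifiers, and positions are from GENCODE 29 (GRCh38).

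Members described in every library were those called with an absolute log2 change of at least 1 and a mean of at least 1 CPM in a state, plus ABCB1, ABCC1, ABCC2, ABCC3, ABCC4, ABCG2, ABCA1, ABCG1 and ABCA3. Up to 3 called genes per partner list with a mean of at least 1 CPM were eligible by size of change, and the text names a selection. In some lists, genes beyond these 3 are named as well. Some genes that these rules take are not reported here. The members, lists and rules were chosen with earlier results of these data known.

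The steps were tested on simulated counts. Within states, no libraries agreed within sampling noise (lowest chi-square per degree of freedom 4.81), so none was merged. Alternatives were RLE factors, library size alone, other filters, DESeq2 1.42.0, each library left out, fits of 2 states, a replicate block, and limma 3.58.1 on log2(TPM + 1) or log2(TPM + 0.1).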

Additional observations from a re-analysis of the deposited data

How the results depend on the processing

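Leaving out each library in turn gave 13 to 15 members higher and 11 to 13 lower on drug against off drug, 9 to 12 higher and 13 to 17 lower on drug against parental cells, and 6 to 8 higher and 10 to 11 lower off drug against parental cells. DESeq2 gave 14 higher and 11 lower, 9 and 15, and 7 and 11. With TPM values (log2(TPM + 1), log2(TPM + 0.1), and log2(TPM + 1) with no filter, in this order) members called lower numbered 4, 4 and 4 on drug against off drug, 5, 7 and 7 on drug against parental cells, and 5, 8 and 10 off drug against parental cells, beside 11, 15 and 12 with counts in the 3 comparisons. Over all genes the lower calls were then 2995, 3286 and 3000, 2828, 3298 and 3162, and 2529, 2951 and 2671 in those comparisons, beside 5403, 5690 and 4602 with counts. Library size alone gave 3585 lower calls on drug against off drug. The cause of these shifts was not tested. With TPM values the signs turned for ABCC1 on drug against off drug (0.03, 0.03 and 0.03), and on drug against parental cells for ABCA7 (0.06, 0.07 and 0.06), ABCB9 (0.12, 0.15 and 0.12) and ABCC4 (0.04, 0.04 and 0.04), with no call in any of them. Over 60 results of single members, ABCB9 not among them, and 1112 alternatives, 1019 kept direction and call, 30 changed sign with no call on either side, 38 lost the call, 16 gained one and 9 turned with a call on 1 side.

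Deviations from the state mean correlated at r = -0.034 to 0.135 between same-numbered libraries of different states, and at -0.0995 to 0.0668 between the others. With 3 libraries per state, these values cannot decide whether the replicate numbers pair the libraries. With the replicate number as a block, 14 members were higher and 11 lower on drug against off drug, 9 and 15 on drug against parental cells, and 6 and 11 off drug against parental cells. Not every library correlated best with its own number. The 13 untested members were left out by the filter on low counts, and with no filter 10 of them were fitted.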

Other observations

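The ratio of estimated counts to TPM gives the mean transcript length that the quantification assigned to a gene, relative between libraries, and it could be formed for 28 members with at least 10 counts in each library. On drug against off drug it moved by at least 0.5 on the log2 scale in 3 of them, ABCC2 at -0.79, ABCC9 at 0.72 and ABCG2 at 0.54, beside 3.01% of all genes. On drug against parental cells the 3 were ABCC9 at 0.63, ABCG2 at 0.54 and ABCA3 at 0.52, beside 2.71% of all genes, and off drug against parental cells there were 0, beside 1.6% of all genes. For ABCG2 the relative length was 1.0, 0.843 and 0.815 on drug, 0.659, 0.68 and 0.494 off drug, and 0.645, 0.579 and 0.611 in parental cells, with 1.0 the longest library, so the on-drug libraries did not overlap the rest. ABCC1 moved by -0.28 on drug against off drug with no overlap. Levels of single transcripts were not analysed here.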
